A study of Mus musculus with 16 samples.

Results

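The H3K4me3 regions described here lie near the distal ends of mouse chromosomes 1 to 19, the ends with the highest coordinates. They were chosen by position alone. A peak was taken when it started within 10 Mb of the largest peak end found on its chromosome in any of 3 H3K4me3 peak lists. Peaks sharing at least 1 bp were then merged. This gave 6269 regions of 59204 on the 19 chromosomes, or 10.6% of the regions on 7.89% of the length spanned by peaks. No region had peaks on both sides of the 10 Mb limit. All coordinates are mm9, counted from 1.

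Trimethylation of histone H3 at lysine 4 (H3K4me3) marks active promoters. In meiotic germ cells the zinc finger protein PRDM9 also places it at the sites it binds, and these sites become recombination hotspots. Mouse autosomes carry their centromere at the end where coordinates begin, so the distal end is the one bearing the far telomere. Male mice are known for frequent crossovers toward that end, which makes it a place to look at PRDM9-dependent marks.

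The study profiled whole testis at 13 days post-partum with 1 anti-H3K4me3 antibody in 3 mouse lines. B6-TgYF (C57BL/6JRj-Tg(RP23-159N6*)23Bdm) and B6-TgWT (C57BL/6J-Tg(RP23-159N6*)43Bdm) carry a transgene, and B6 (C57BL/6JOlaHsd) carries none. As background, the transgene is known to be a genomic clone with Prdm9. The WT form is active and binds other sites than the B6 protein, and the YF form is mutated in the catalytic domain. By its title, the series is about the need for PRDM9's methyltransferase in making meiotic DNA breaks. The labels name no Prdm9 knockout for these 3 lines, so each is taken to keep its own Prdm9 beside any transgene. Each transgene is represented by 1 line, the C57BL/6 substrain differs among the 3 lines, and whole testis at this age mixes germ cells with somatic cells. Transgene, substrain and line cannot be told apart in any comparison below.

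Each line had 2 ChIP libraries and 1 input but only 1 deposited peak list, so the spread between replicates is unknown and no test across samples was possible. On chromosomes 1 to 19 the lists held 41558 peaks in B6-TgYF, 46631 in B6-TgWT and 50013 in B6. Of these, 4535, 5037 and 5314 lay in the distal windows, or 10.9%, 10.8% and 10.6%. Shares are given with 95% Wilson intervals, differences between shares with Newcombe intervals and density ratios with exact intervals. All of them cover counting error over peaks or regions only. Neighbouring regions are not independent, so the number of chromosomes with the same direction is given for several results. It is not given for the density ratios of single classes or of gained peaks. Read depth is unknown, because the lists hold no read counts. The peaks carry no gene names, and markers of testis cell types were not checked.

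The distal windows were rich in H3K4me3 regions. They held 33.0 regions per Mb, against 23.9 per Mb in the rest of the same chromosomes, a ratio of 1.38 (95% interval 1.35 to 1.42). The window was denser than the rest on 16 of the 19 chromosomes. The exceptions were chromosome 3 with 17.9 regions per Mb in the window and 20.7 in the rest, chromosome 17 with 19.7 and 28.7, and chromosome 18 with 21.0 and 23.7. Chromosome 15 stood highest, with 59.4 regions per Mb in its window and 21.7 in the rest. Without chromosome 15 the ratio was 1.32.

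Every class had more regions per Mb near the distal end, but not equally so. For both transgenic lists without B6 the interval of the ratio included 1. Regions with a peak in all 3 lists numbered 20.1 per Mb in the windows and 14.05 in the rest, a ratio of 1.43 (1.38 to 1.48). Regions of the B6-TgWT list alone numbered 4.85 and 3.61 per Mb, a ratio of 1.34 (1.25 to 1.44). Regions of the B6 list alone numbered 4.21 and 3.48 per Mb, the smallest ratio of the 7 classes at 1.21 (1.12 to 1.30). The ratio was 1.41 for regions of B6 and B6-TgYF without B6-TgWT, 1.37 for B6 and B6-TgWT without B6-TgYF, and 1.70 (1.26 to 2.25) for B6-TgYF alone. Both transgenic lists without B6 shared 10 regions in the windows and 59 in the rest, too few for a density ratio closer than 0.902 to 3.90.

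The 6269 distal regions fell into the same 7 classes in nearly the same proportions as the rest. Of them, 3810 were in all 3 lists (60.8%, interval 59.6 to 62.0), against 58.9% of the 52935 regions of the rest and 59.1% over all 19 chromosomes. The difference of 1.90 percentage points (0.612 to 3.17) had its direction on 11 of 19 chromosomes only. It was 0.810 with equal weight for each chromosome and 1.10 without chromosome 15 (-0.253 to 2.43). With only the strongest 50% of each list it turned round to -1.57 (-3.40 to 0.223), so this share gave no stable difference.

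Among the other classes, 922 distal regions (14.7%, 13.9 to 15.6) belonged to the B6-TgWT list alone, against 15.1% of the rest and 15.1% over all 19 chromosomes. The B6 list alone held 799 (12.7%, 11.9 to 13.6), against 14.6% of the rest and 14.4% over all. This difference of -1.83 percentage points (-2.69 to -0.936) had its direction on 14 of 19 chromosomes and kept it under all 12 alternative settings. Regions of B6 and B6-TgYF without B6-TgWT numbered 534 (8.52%, background 8.38%), those of B6 and B6-TgWT without B6-TgYF 137 (2.19%, background 2.20%), those of B6-TgYF alone 57 (0.909%, background 0.758%) and those of both transgenic lists without B6 10 (0.160%, background 0.117%). For these 4 classes the interval of the difference between the windows and the rest included 0. For B6 and B6-TgYF without B6-TgWT it excluded 0 with the strongest 50% of each list, at 1.29 (0.389 to 2.28), and with the strongest 50% of B6-TgWT against the other lists in full, at 1.49 (0.152 to 2.84). Both settings drop the weaker B6-TgWT peaks. A region with only such a B6-TgWT peak can then count as lacking one, so these values do not measure absence.

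**Figure D1:**
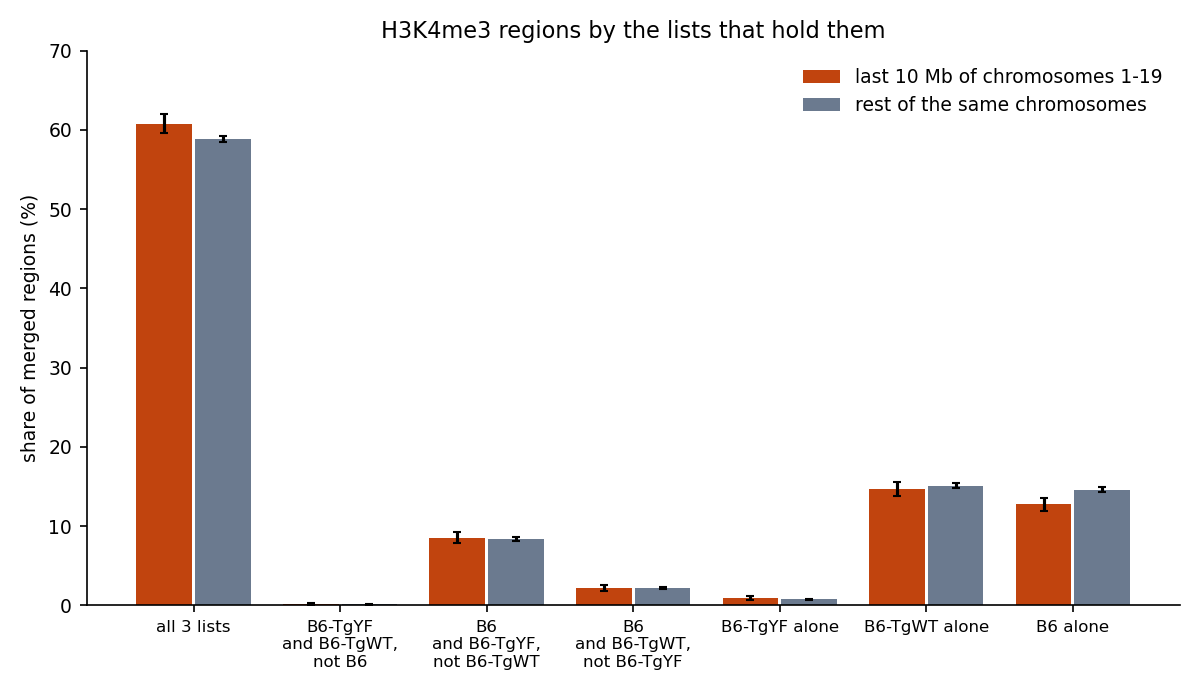
Share of merged H3K4me3 regions (%) in each of the 7 list classes, for the last 10 Mb of chromosomes 1 to 19 (6269 regions) and the rest of the same chromosomes (52935 regions). Bars start at 0 and lines are 95% Wilson intervals. The pairs of bars are nearly level, with the widest relative gap among the larger classes at B6 alone, 12.7% near the distal ends and 14.6% in the rest.

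The 3810 distal regions in all 3 lists carried the mark in each line. Their median width was 1452 bp, against 1485 bp in the rest, a difference of -33 bp whose interval from the order statistics of both medians (-66.8 to 1.93) included 0. It excluded 0 with the last 1 Mb left out, at -58 bp (-86.2 to -22.1), and with windows of 20 Mb, at -48 bp (-73.1 to -24.3), while within 5 Mb it was 37 bp (-27.8 to 88.8). In the distal windows 7.80% were wider than 3000 bp, against 8.02% in the rest. Several peaks of 1 list fell in the same region in 5.62% of them, against 5.17% in the rest. Their fold enrichment over background, as the authors' caller gave it, had medians of 8.93 in B6-TgYF, 7.85 in B6-TgWT and 11.1 in B6. In the rest the medians were 9.26, 8.25 and 11.7. The regions near the distal ends thus had slightly lower medians in every list, and fold enrichments of separate lists are not compared with each other.

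The same was seen over all peaks of each list at the upper end of strength. The strongest 10% of the list made up 8.97% of the distal peaks in B6-TgYF, 9.21% in B6-TgWT and 8.88% in B6, against 10.1% of the rest in each of the 3 lists. The median percentile of fold enrichment within the list was 49.4, 49.9 and 50.3 in the windows and 50.08, 50.04 and 50.06 in the rest. Peaks of the upper 10% therefore made up a somewhat smaller share of the distal peaks than of the rest. These are shares of peaks and not numbers per Mb, given without an interval or a number of chromosomes. The 3 lists hold many of the same regions, so they are not 3 independent observations. The median percentiles lay within 1 point of those of the rest.

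The strongest distal region in all 3 lists lay on chromosome 14 at 122503387 to 122507846, 2.58 Mb from the last peak end. Its highest fold enrichment was 37.71 in B6-TgYF, 34.84 in B6-TgWT and 39.59 in B6. It was 4460 bp wide and was made of 7 peaks over the 3 lists. The next lay on chromosome 6 at 140570907 to 140574910, with 37.7, 33.8 and 38.6, and on chromosome 14 at 119336072 to 119338430, with 35.63, 34.49 and 38.97. These 3 regions stood at percentile 99.6 or above in every list.

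The widest distal region lay on chromosome 5 at 143574576 to 143585974 and spanned 11399 bp. Each list covered it with 1 peak, of 11008 bp in B6-TgYF, 11096 bp in B6-TgWT and 11399 bp in B6, and the fold enrichments were 29.18, 27.53 and 34.78. The next widest lay on chromosome 11 at 120091107 to 120099681, with peaks of 8490, 8405 and 8545 bp, and at 112641615 to 112648740, with a combined peak width of 6735, 5702 and 7126 bp. The first 2 of these had peaks of nearly the same width in the 3 lines, while the B6-TgWT peaks covered less of the last one.

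Sites gained in the B6-TgWT line were read as B6-TgWT peaks that overlapped no B6 peak, although the mark may have been present in B6 below the limit of the list. The distal windows held 932 of them among 5037 B6-TgWT peaks (18.5%, 17.5 to 19.6). The rest held 8070 among 41594 (19.4%, 19.02 to 19.8), and the share over all 19 chromosomes was 19.3%. The difference of -0.899 percentage points (-2.01 to 0.261) included 0. The distal share was higher on 7 chromosomes and lower on 12, and the difference was 0.169 with equal weight for each chromosome and 0.00675 without chromosome 15. With windows of 20 Mb it was -1.91 (-2.76 to -1.04), which excluded 0. By length, gained peaks numbered 4.91 per Mb in the windows and 3.64 per Mb in the rest, a ratio of 1.35 (1.26 to 1.44). With equal weight for each chromosome the ratio was 1.34, with an SD of 0.408 across chromosomes. Gained peaks were thus more frequent per Mb near the distal ends, as the other peaks of the list were.

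Gained peaks near the distal ends were close in width and strength to gained peaks elsewhere. Their median width was 1180.5 bp, with quartiles of 846 and 1568 bp, against 1189 bp in the rest, with quartiles of 855 and 1575 bp. Of the distal ones 8.69% were wider than 2000 bp (7.05 to 10.7), against 9.48% in the rest. Their median fold enrichment was 5.10, with quartiles of 4.15 and 7.04, against 5.19 in the rest, with quartiles of 4.15 and 6.95. In the stronger 50% of the B6-TgWT list lay 255 of the 932 (27.4%, 24.6 to 30.3), against 26.6% in the rest. The B6-TgYF list overlapped 10 of the 932 (1.07%, 0.584 to 1.96), against 0.768% in the rest. The intervals of these 3 differences in share (wide peaks, stronger peaks, overlap with B6-TgYF) all included 0.

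At matched strength the gained share was close to that of the rest as well. Of 5 strength groups, only that from percentile 40 to 60 had an interval that excluded 0, and only just. The intervals were not adjusted for the 5 groups. In the weakest 20% of the B6-TgWT list, with fold enrichments of 1.58 to 4.32, 28.7% of the distal peaks and 29.96% of the rest were gained. From percentile 40 to 60, with fold enrichments of 5.72 to 8.43, 247 of 1029 distal peaks and 26.9% of the rest were gained, a difference of -2.87 percentage points (-5.56 to -0.00322). From percentile 60 to 80 it was 12.5% and 12.9%, and among the strongest 20% it was 3 of 950 distal peaks and 8 of 8380 in the rest. Gained peaks were wider than B6-matched peaks of similar strength in both places. From percentile 40 to 60 the median width was 1444 bp for distal gained peaks and 1077 bp for distal peaks overlapping B6, and 1450 and 1064 bp in the rest. From percentile 60 to 80 these medians were 1832 and 1486 bp near the distal ends, and 1903 and 1464 bp in the rest.

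Chromosome 4 held the strongest distal region found in B6-TgWT alone, at 151123980 to 151126668, which is 4.50 Mb from the last peak end. It was 2689 bp wide with a fold enrichment of 17.7, at percentile 81.2 of its list, and the nearest region in all 3 lists was 9.95 kb away. On chromosome 11, 116043113 to 116045665 had a fold enrichment of 17.55 and 112934855 to 112936729 had 17.46. The fourth, 191652335 to 191654149 on chromosome 1, had 15.72, and the fifth, 128463742 to 128466319 on chromosome 8, had 14.34. The B6-TgYF and B6 lists had no peak at any of these 5 regions. Their distances to the nearest region in all 3 lists ran from 3.94 to 55.7 kb.

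The gained share near the distal end differed from chromosome to chromosome, as it did among other windows of that size. Over the 19 windows it averaged 19.7% with an SD of 6.19 across chromosomes, against 19.5% with an SD of 2.14 in the much longer rest. The windows hold fewer peaks each, from 134 to 491, and counting error is wider there. The share ran from 6.93% to 31.3% (median 19.4%) over the 19 distal windows. Over the 210 other full windows of 10 Mb it ran from 6.78% to 43.1% (median 20.1%). These ranges do not compare the spreads, because a range grows with the number of windows. The extremes of the other windows also came from few peaks, 4 of 59 on chromosome 14 and 22 of 51 on chromosome 1. The highest windows were on chromosome 3 with 42 of 134 peaks gained (31.3%, 24.1 to 39.6; rest 16.6%), chromosome 1 with 59 of 198 (29.8%, 23.9 to 36.5; rest 22.0%) and chromosome 18 with 47 of 169 (27.8%, 21.6 to 35.0; rest 21.3%). The lowest were on chromosome 10 with 19 of 274 (6.93%, 4.48 to 10.6; rest 16.2%), chromosome 15 with 53 of 491 (10.8%, 8.35 to 13.8; rest 21.3%) and chromosome 5 with 48 of 371 (12.9%, 9.90 to 16.7; rest 18.6%).

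The interval of the difference between the window and the rest lay above 0 on 4 chromosomes (1, 3, 7 and 19) and below 0 on 3 (5, 10 and 15), and it included 0 on the other 12. These intervals were not adjusted for the 19 comparisons. Differences in both directions were thus seen. Whether the distal windows vary more than other windows of 10 Mb was not tested. On chromosome 3 the difference was 14.8 percentage points (7.35 to 23.2), and on chromosome 15 it was -10.5 (-13.8 to -6.90).

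**Figure D2:**
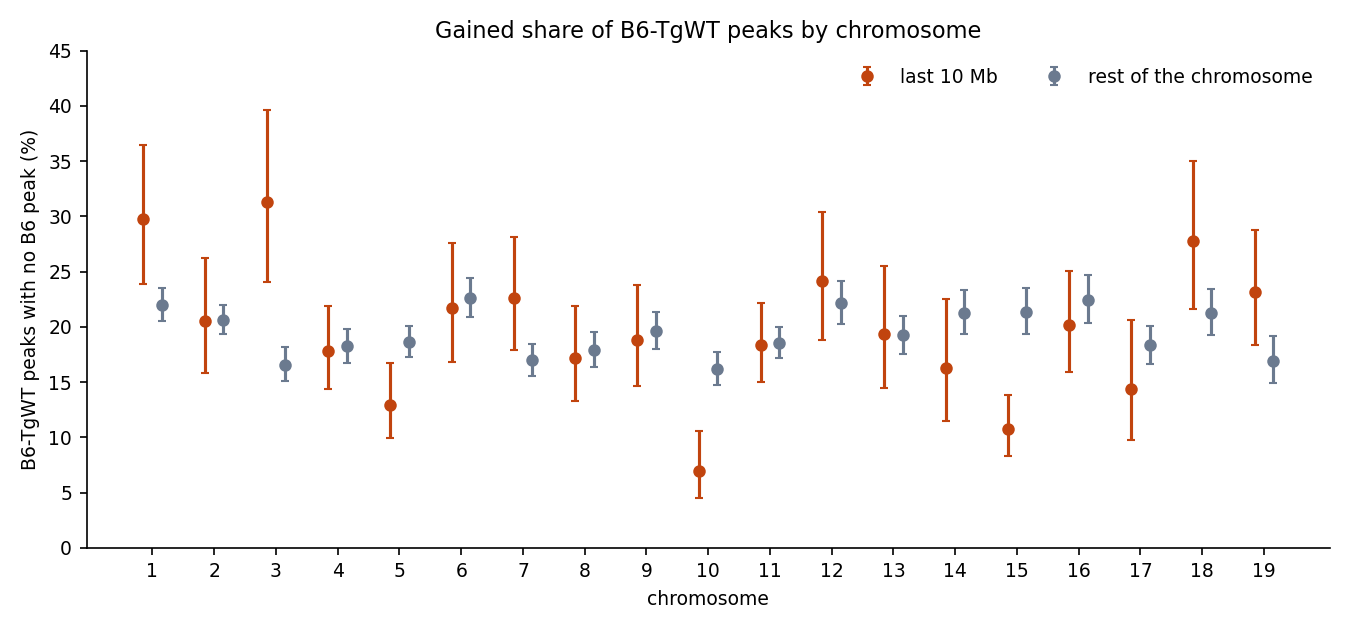
Share of B6-TgWT peaks that overlap no B6 peak (%), for the last 10 Mb and the rest of each of the 19 chromosomes. Points are shares and lines 95% Wilson intervals. The rest stays between 16.2% and 22.6% on every chromosome, while the shorter distal windows run from 6.93% on chromosome 10 to 31.3% on chromosome 3. The 210 other windows of 10 Mb, some with fewer peaks, run from 6.78% to 43.1%.

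The gained share was lower where regions in all 3 lists were dense. Over the 19 distal windows the share and the number of such regions had a Spearman's rho of -0.63 (Pearson's r -0.62), and the number of gained peaks and of regions in all 3 lists had a rho of 0.50 (r 0.48). Over the other 210 full windows of 10 Mb these were -0.60 (r -0.59) and 0.71 (r 0.70). The windows share their libraries, and a peak shared with B6 adds to the denominator of the share, so these values are descriptions only. The distal window of chromosome 3 held 88 regions in all 3 lists, the fewest of the 19, and that of chromosome 15 held 401, the most. Chromosome 10, with the lowest share, held 230 such regions beside its 19 gained peaks.

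Windows were therefore grouped by their number of regions in all 3 lists. The groups do not fully match density, since distal windows had the higher median in each. From the sparsest group up, the medians were 88 against 66.5, 131.5 against 123.5, 173.5 against 167 and 263.5 against 240.5. With under 100 regions in all 3 lists, the 1 distal window had a gained share of 31.3% and 68 other windows 26.2%. With at least 100 and under 150 such regions, 6 distal windows had 22.2% (19.9 to 24.8) and 52 others 20.8% (19.99 to 21.7). With at least 150 and under 200, 4 distal windows had 22.1% (19.5 to 24.8) and 48 others 18.3% (17.6 to 19.1). With 200 or more, 8 distal windows had 15.3% (13.99 to 16.6) and 42 others 15.9% (15.3 to 16.5). The distal share was higher in the first 3 groups, with intervals apart only in the one starting at 150 regions, and lower in the densest.

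By number of gained peaks, the distal window was first among the 10 Mb windows of its own chromosome on 6 of 19 chromosomes (1, 4, 7, 8, 11 and 19) and in the upper 50% on 15. By gained share it was first on 1 (chromosome 3), in the upper 50% on 6 and last on 3 (5, 10 and 15). The median window held 50 gained peaks near the distal end (range 19 to 83) and 36 elsewhere (range 4 to 79). The 83 gained peaks at the end of chromosome 11 were the most of all 229 windows.

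**Figure D3:**
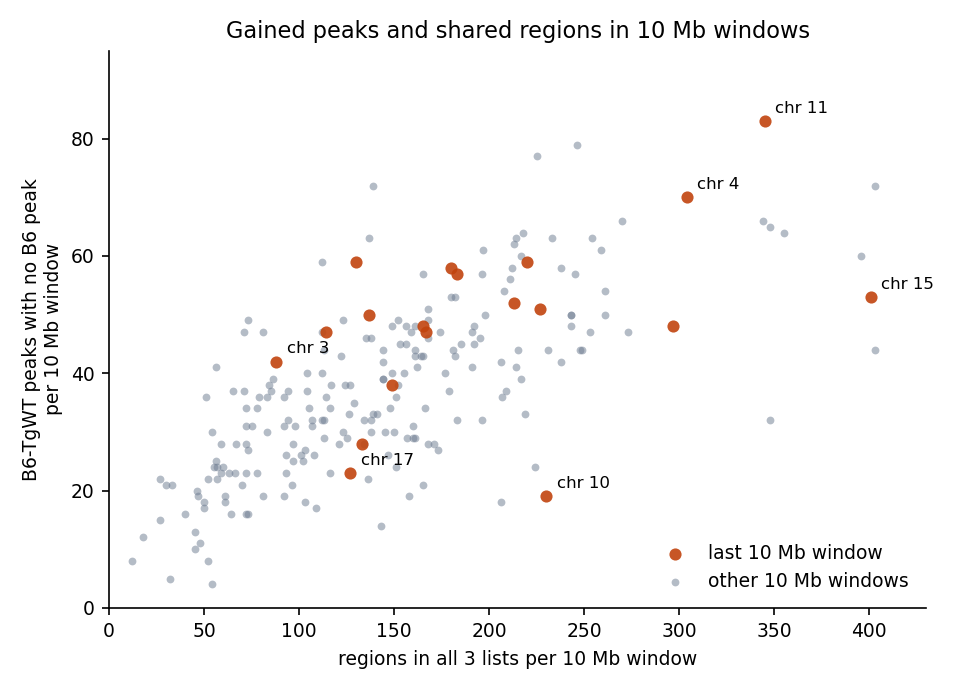
Number of B6-TgWT peaks with no B6 peak against the number of regions in all 3 lists, in 229 full windows of 10 Mb counted from the distal end of chromosomes 1 to 19. Large points are the 19 distal windows and small points the other 210. Distal windows lie toward the upper right of the cloud, with chromosome 11 highest at 83 gained peaks and chromosome 10 lowest of the distal windows at 19, near the 18 that is the lowest of the other windows with 200 or more regions in all 3 lists.

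Going inward over 50 Mb, the density of all regions was lower by degrees, and regions in all 3 lists were almost as dense from 10 to 30 Mb as in the windows. They numbered 20.1 per Mb from 0 to 10 Mb, 19.4 per Mb from 10 to 20 Mb and 19.4 per Mb from 20 to 30 Mb, then 14.3 per Mb from 30 to 40 Mb. Gained peaks numbered 4.91, 4.26, 4.03 and 4.01 per Mb over the same steps, and again 4.69 per Mb from 60 to 70 Mb, where regions in all 3 lists reached 18.5 per Mb. Regions of B6 alone were denser from 10 to 20 Mb, at 4.51 per Mb, than in the last 10 Mb, at 4.21. Just inside the limit, from 9 to 10 Mb, there were 589 regions (31.0 per Mb) with 54.8% in all 3 lists and 87 of 441 B6-TgWT peaks gained (19.7%). Just outside it, from 10 to 11 Mb, there were 512 regions (26.9 per Mb) with 54.1% in all 3 lists and 88 of 382 gained (23.0%).

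Within the windows the last 1 Mb was the sparsest, with 25.8 regions per Mb, against 38.7 per Mb from 7 to 8 Mb. Regions in all 3 lists were widest at the tip, with a median of 1716 bp in the last 1 Mb and 1639 bp from 1 to 2 Mb. From 2 to 10 Mb the medians moved between 1343 and 1499 bp without a steady order, with 1381 bp from 9 to 10 Mb. From 10 to 20 Mb they moved between 1253 and 1554 bp. The gained share was between 20.2% and 21.2% in each of the last 4 Mb, 13.6% (11.02 to 16.8) from 4 to 5 Mb and between 16.3% and 19.7% from there to 10 Mb. The B6 peaks absent from B6-TgWT made up 21.6% in the last 1 Mb and 31.3% from 9 to 10 Mb, the lowest and highest steps. In the steps between, the share moved from 22.9% to 26.6% without a steady rise. The intervals of neighbouring steps overlapped for the gained share, except between the step from 3 to 4 Mb (20.3%, 17.1 to 24.01) and the one after it. On 13 of 19 chromosomes the last region was in all 3 lists, on 3 it was of B6 alone, on 2 of B6-TgWT alone and on 1 of B6 and B6-TgYF.

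**Figure D4:**
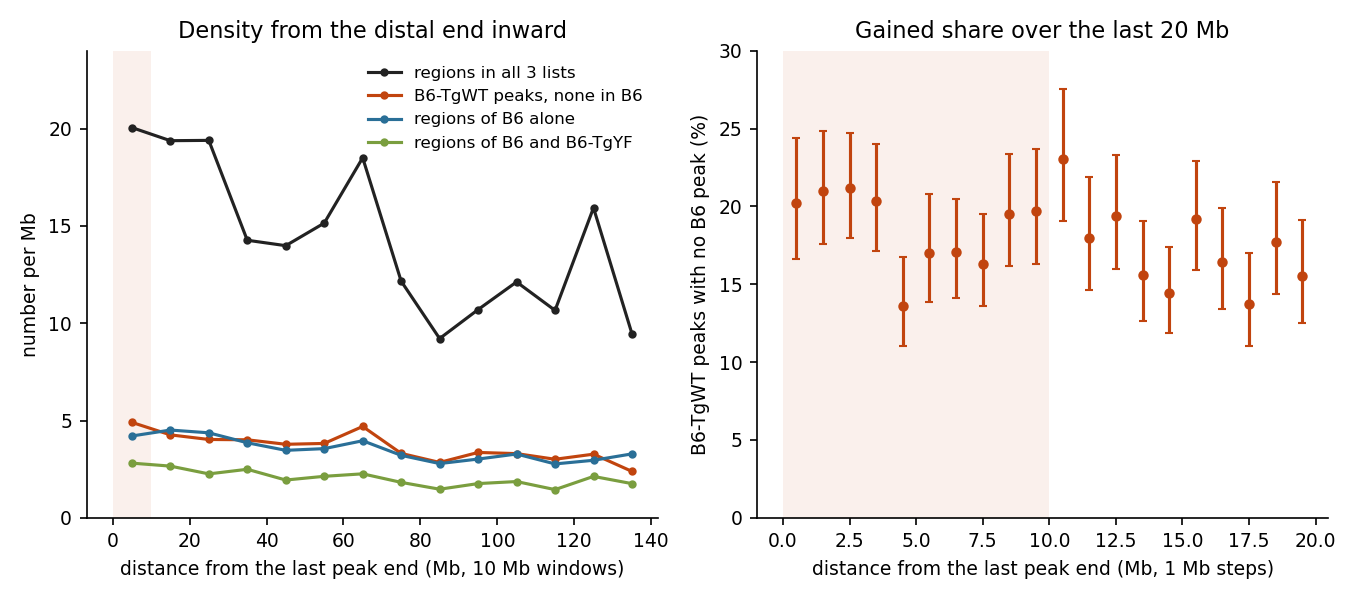
Left, number per Mb of regions in all 3 lists, of B6-TgWT peaks with no B6 peak, of regions of B6 alone and of regions of B6 and B6-TgYF without B6-TgWT, in windows of 10 Mb from the last peak end inward (14 windows, each with at least 7 chromosomes). Right, share of B6-TgWT peaks with no B6 peak (%) in steps of 1 Mb with 95% Wilson intervals. The shaded part is the last 10 Mb, where regions in all 3 lists number 20.1 per Mb and the gained share moves between 13.6% and 21.2%.

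In the line with the catalytic mutant, gained peaks were few near the distal ends too. The B6-TgYF list had 68 of 4535 distal peaks with no overlapping B6 peak (1.499%, 1.18 to 1.90), against 455 of 37023 in the rest (1.23%, 1.12 to 1.35), and 1.26% over all 19 chromosomes. The difference of 0.270 percentage points (-0.0656 to 0.682) included 0. It excluded 0 with the last 1 Mb left out, at 0.399 (0.0377 to 0.843), and with the first 10 Mb of the chromosome left out of the rest, at 0.346 (0.00977 to 0.757), and it was -0.108 with windows of 20 Mb. These peaks were weak and narrow, with a median fold enrichment of 3.65 and a median width of 515 bp, and the highest reached 4.91. In the stronger 50% of the B6-TgYF list there were 0 of the 68 (up to 5.35% by the Wilson interval), against 1 of 455 in the rest. The B6-TgWT list overlapped 11 of the 68 (16.2%, 9.28 to 26.7), against 13.8% in the rest.

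Among distal regions of B6-TgYF alone, 119570124 to 119571020 on chromosome 9 was strongest, with a fold enrichment of 4.91. Chromosome 7 at 149943673 to 149943962 and chromosome 9 at 114672087 to 114672844 followed, both with 4.55. They stood at percentiles 23.4 to 28.2 of their list. Of the 190 steps of 1 Mb in the distal windows, 143 held no region of B6-TgYF alone, and 8 held none of B6-TgWT alone. The most regions of B6-TgWT alone in 1 step were 15, on chromosome 4 between 2 and 3 Mb from the end.

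Of the 10 distal regions in both transgenic lists and not in B6, the strongest lay on chromosome 13 at 117836697 to 117839494. The B6-TgYF peak there was 256 bp wide with a fold enrichment of 3.55, and the B6-TgWT peak 2798 bp wide with 9.18. The second, on chromosome 2 at 172346781 to 172348665, had peaks of 376 bp (fold 3.64) and 1861 bp (fold 8.56). In both, a narrow B6-TgYF peak met a wide B6-TgWT peak. The next, on chromosome 8 at 129259468 to 129260543, had peaks of 1074 bp (fold 4.53) and 955 bp (fold 4.41).

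Similar narrow overlaps occurred with B6. Among distal regions of B6-TgWT and B6 without B6-TgYF, the strongest was on chromosome 5 at 149472560 to 149474519. It had a B6-TgWT peak of 1960 bp with a fold enrichment of 12.22 and a B6 peak of 604 bp with 4.59. A region on chromosome 12 at 113780784 to 113782252 had 1469 bp and 14.3 in B6-TgWT and 386 bp and 3.44 in B6. The one on chromosome 4 at 154115312 to 154116345 had 1034 bp and 5.55 in B6-TgWT and 1015 bp and 7.66 in B6. The sites on chromosomes 5 and 12 count as shared with B6 under the 1 bp rule although their B6 peaks were weak, at percentiles 23.8 and 6.23 of the B6 list.

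B6 sites were missing from the transgenic lists somewhat less often near the distal ends than in the rest taken as a whole. The B6-TgYF list missed 937 of 5314 distal B6 peaks (17.6%, 16.6 to 18.7), against 19.9% in the rest and 19.7% over all 19 chromosomes. The difference was -2.29 percentage points (-3.36 to -1.18), with this direction on 13 of 19 chromosomes. The B6-TgWT list missed 1345 (25.3%, 24.2 to 26.5), against 27.3% in the rest and 27.1% over all. The difference was -1.97 (-3.20 to -0.716), with this direction on 11 of 19 chromosomes. Similar shares occurred further inward, so they were not particular to the windows. In steps of 1 Mb, B6-TgWT missed 32.3% of B6 peaks from 10 to 11 Mb. From 14 to 20 Mb it missed between 20.1% and 27.7%. The gap was largest among B6 peaks of percentile 20 to 40, of which B6-TgYF missed 23.7% near the distal ends and 28.8% in the rest, and B6-TgWT 41.8% and 47.4%. In the weakest 20% B6-TgYF missed 64.8% and 68.4%, and B6-TgWT 79.9% and 81.5%.

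Of the stronger B6 peaks, few were missing anywhere. Among the upper 40% of the B6 list, 5 of 20019 peaks had no B6-TgWT peak over them, and 3 of these 5 lay in the distal window of chromosome 10. Their B6 fold enrichments were 12.03 for 121965229 to 121965876, 13.14 for 122239029 to 122240499 and 10.24 for 122293409 to 122294727. The B6-TgYF list had a peak at each, with fold enrichments of 7.08, 12.87 and 6.09. They stood between percentiles 61.0 and 68.2 of the B6 list.

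The 3 peaks span 329 kb, from 121965229 to 122294727, a stretch picked out after its values were seen. It held 11 peaks of B6-TgYF, 3 of B6-TgWT and 12 of B6. The B6-TgYF list missed 1 of the 12 B6 peaks and the B6-TgWT list 9. The stretch was not empty in B6-TgWT, whose strongest peak there had a fold enrichment of 11.77, where the strongest of B6-TgYF had 25.98 and of B6 28.9. No B6-TgWT peak in it lacked a B6 peak. The same distal window had the lowest gained share of the 19, and 14.4% of its regions were of B6 and B6-TgYF without B6-TgWT, against 10.5% in the rest of chromosome 10. Only chromosome 14 had a higher value in its window, with 14.5%, against 8.05% in its rest. Whether chromosome 10 differs between the lines in copy number, in cell content or in another way was not tested.

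Outside chromosome 10, the strongest distal region of B6-TgYF and B6 without B6-TgWT was 112522738 to 112523405 on chromosome 12, whose fold enrichment was 7.67 in B6-TgYF and 9.66 in B6. The strongest distal regions of B6 alone were weaker. Fold enrichment was 6.69 at 152512770 to 152513258 on chromosome 3, 6.46 at 118380260 to 118381350 on chromosome 13 and 6.32 at 121238043 to 121238924 on chromosome 14. They stood at percentiles 40.6 to 43.5 of the B6 list.

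Regions of B6 alone sat closer to regions in all 3 lists near the distal ends than in the rest. Of the 799 distal ones, 420 lay within 10 kb of such a region (52.6%, 49.1 to 56.0), against 37.6% of 7718 in the rest. The difference was 14.99 percentage points (11.4 to 18.6), and 17 of 19 chromosomes had its direction. Within 1 kb the shares were 17.02% and 11.6%, higher in the windows on 15 of 19 chromosomes. The median distance was 9.22 kb near the distal ends and 17.05 kb in the rest. By chromosome the distal share within 10 kb ran from 24.2% on chromosome 3 to 73.9% on chromosome 15.

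Regions in all 3 lists were themselves nearer to each other in the windows. Of these, 50.6% lay within 10 kb of another near the distal ends and 44.7% in the rest. In windows with 200 or more regions in all 3 lists, 60.7% of distal B6-alone regions were within 10 kb (55.9 to 65.3), against 52.6% elsewhere (50.4 to 54.8). With at least 150 and under 200 the shares were 49.3% (41.2 to 57.4) and 39.4% (37.2 to 41.5). With at least 100 and under 150 they were 43.8% (37.3 to 50.4) and 33.3% (31.1 to 35.5). With under 100, the 33 distal regions gave 24.2% (12.8 to 41.02) and the others 22.97%. For B6 alone the share was lower further inward, at 44.7% from 10 to 20 Mb, 42.5% from 20 to 30 Mb and 36.7% from 30 to 40 Mb. For regions in all 3 lists it was 50.5%, 49.4% and 43.3% over the same steps. The distal share of B6-alone regions was thus higher in all 4 groups, with intervals apart in the densest and in the one starting at 100 regions. The groups do not fully match density, since the distal windows had the higher median density in each. In the densest group these medians were 263.5 and 240.5 regions in all 3 lists.

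Regions of B6 and B6-TgYF without B6-TgWT went the same way, with 48.9% within 10 kb near the distal ends and 40.6% in the rest, a difference of 8.31 percentage points (3.85 to 12.8). For gained regions the difference was smaller, and the contrast between classes was not tested. Of the 922 regions of B6-TgWT alone, 33.5% lay within 10 kb of a region in all 3 lists, against 29.6% in the rest, a difference of 3.89 (0.754 to 7.16). In the same 4 groups of windows the intervals overlapped. The distal share was 40.8% against 40.3% with 200 or more regions in all 3 lists and 33.7% against 30.6% from 150. It was 23.05% against 26.5% from 100 and 19.05% against 18.6% below that. Within 1 kb lay 4.34% of distal regions of B6-TgWT alone, against 4.05% in the rest. Their median distance to each other was 56.2 kb near the distal ends and 67.3 kb in the rest.

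**Figure D5:**
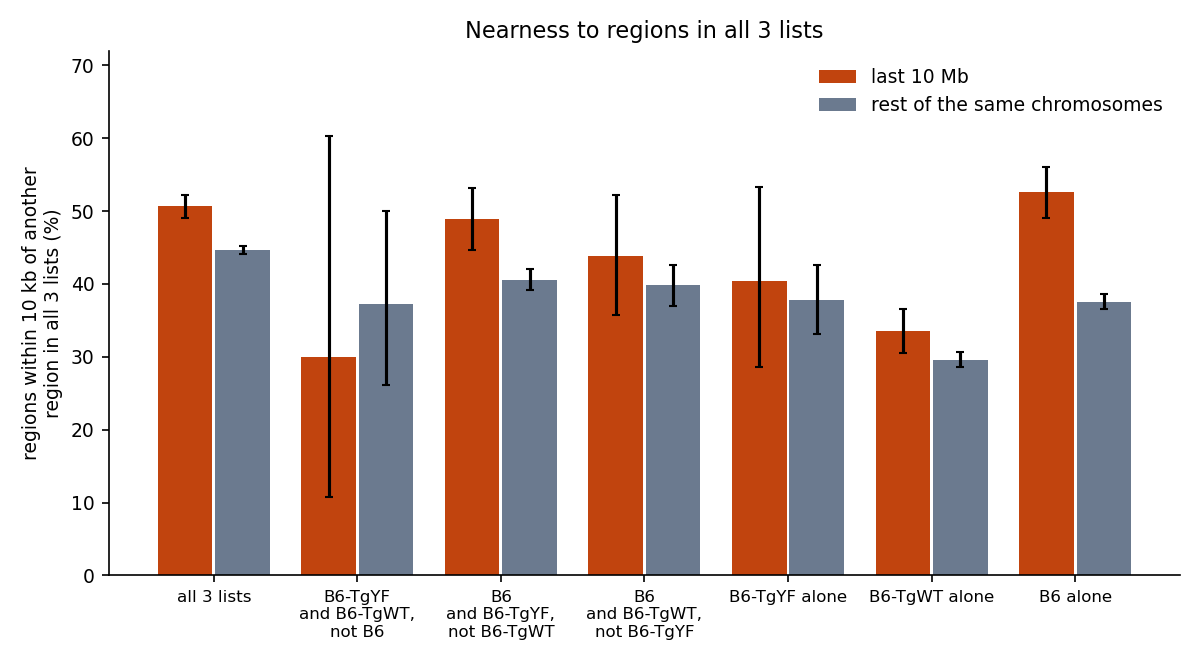
Share of regions (%) lying within 10 kb of a region in all 3 lists, by list class, for the last 10 Mb and the rest of chromosomes 1 to 19. For regions in all 3 lists the nearest other such region was used. Bars start at 0 and lines are 95% Wilson intervals. Regions of B6 alone show the widest gap among the larger classes, 52.6% near the distal ends and 37.6% in the rest, and regions of B6-TgWT alone a small one, 33.5% and 29.6%.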

How the data were processed

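The authors deposited 1 H3K4me3 peak list per line, which the labels tie to both ChIP libraries and the input. The build mm9 and the tools MACS2, BWA, Bowtie2 and CASAVA are named without role or version in the submitters' processing notes. Not given in the sources used here are the peak cutoff and the way replicates were combined. The lists have no header, and columns were taken in MACS order. Fold enrichment, a ratio to background, is the authors' value for each peak. The deposited −log10 p is also per peak, and multiplying it by 10 and rounding down gave the deposited score in every row. The lowest −log10 p was 11 in B6-TgYF, 12 in B6-TgWT and 11 in B6. The B6 list is named with the number 12 where its labels give 13 days.

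Grouping followed antibody and line in the titles. Zones, merging at 1 bp, classes, widths, percentiles of fold enrichment within a list and distances were computed with Python 3.11.15, numpy 2.4.6, pandas 2.3.3 and scipy 1.17.1, and figures with matplotlib 3.10.9. The rest of a chromosome runs from its first peak to the 10 Mb limit, 2218 Mb in all beside 190 Mb of distal windows. The code was tested on simulated data. No test across samples was made, since each line has 1 list. Named regions were the 5 strongest of B6-TgWT alone, the 3 strongest of each other class and the 3 widest. The members, rules and lists were chosen with earlier results of these data known. The density groups, the distances by density and by 10 Mb step and the chromosome 10 stretch were chosen after the data were seen. Alternatives were other window lengths, overlap rules, list thresholds and chromosome weights. No mm9 sequence or annotation was used, so regions carry no gene, promoter or sequence. The DMC1 libraries were not analysed here.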

Additional observations from a re-analysis of the deposited data

Results flagged for a closer look

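Chromosomes X and Y were outside the comparisons, and their peaks are given as values. Within 10 Mb of the last peak end of chromosome X B6-TgYF had 69 peaks, B6-TgWT 75 and B6 82. Of the 75 B6-TgWT peaks, 12 overlapped no B6 peak (16.0%, 95% Wilson interval 9.40 to 25.9), against 112 of 942 in the rest of chromosome X (11.9%, 9.98 to 14.1). On chromosome Y, B6-TgYF had 5 peaks, B6-TgWT 6 and B6 6.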

How the results depend on the processing

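The 10 results were recomputed under 12 settings. Of the 119 values this gave, 105 stayed inside the interval of the reported value or, for the number of regions, near its count. The other 14 did not, and 1 of them (the share in all 3 lists) turned round a difference whose interval had excluded 0. Leaving out chromosome 15 was chosen after the data were seen, and its ratio of densities was 1.32. Within 5 Mb of the end there were 3107 regions, the share of B6 alone differed by -2.82 percentage points and the median width of regions in all 3 lists by 37 bp. Within 20 Mb there were 12271 regions, and the share of B6-TgYF peaks absent from B6 differed by -0.108. With the strongest 50% of each list there were 3076 regions. The share in all 3 lists then differed by -1.57, that of B6 and B6-TgYF without B6-TgWT by 1.29 and the gained share by 0.503, with a gained density ratio of 1.46 and a width difference of 4 bp for regions in all 3 lists. With the strongest 50% of B6-TgWT against the other lists in full, these first 2 shares differed by 0.470 and 1.49. Intervals that included 0 as reported and excluded it otherwise were those of the gained share within 20 Mb (-1.91), of the width of regions in all 3 lists within 20 Mb (-48 bp) and with the last 1 Mb left out (-58 bp), and of the share of B6-TgYF peaks absent from B6 with the last 1 Mb left out (0.399) or the rest without its first 10 Mb (0.346). The same held for both values of B6 and B6-TgYF without B6-TgWT. The strength settings remove peaks by construction and the cause was otherwise not tested. Equal weight per chromosome gives no count of regions. No paired analysis was possible because both replicates of a line are combined in 1 list, and for the same reason none could be left out. Unknown depth limits every call of absence.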
